A study of Mus musculus with 12 samples.

Results

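Newly made RNA was set against the accumulated RNA pool of macrophages that had received no stimulus. The comparison rests on 4 of the 12 arrays, chosen by their titles: 2 of nascent RNA and 2 of total RNA, with 1 of each from 2 independent experiments, called culture 1 and culture 2 here. Each array measured 19938 genes with a usable name. The study exposed mouse macrophages to lipopolysaccharide (LPS), the cell wall component of Gram-negative bacteria that Toll-like receptor 4 senses, and profiled both RNA fractions on Affymetrix Mouse Gene ST arrays. The other 8 arrays hold cells after 45 or 270 min in LPS at 100 ng/ml. The macrophages were grown from bone marrow of C3H/HeN mice for 17 days, with IL-3, IL-6 and stem cell factor at first and with conditioned medium of L cells, which supplies the macrophage growth factor M-CSF. They were replated as adherent cells after both had been withdrawn. The sources used here give neither the number nor the age of the mice.

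Nascent RNA, as labelled here, is RNA that took up 4-thiouridine, a uridine analogue, during the last 35 min of culture at 200 µM. From 120 µg of RNA the labelled molecules were biotinylated and recovered on streptavidin beads, and 100 ng went into a randomly primed amplification. The total RNA arrays took 200 ng of the unpurified RNA of the same cultures, so both fractions came from cells exposed to the label. Newly made RNA includes transcripts that are still unspliced, whereas total RNA holds what has accumulated, mostly mature. An RNA that is degraded soon after it is made takes a larger share of the nascent fraction than of the pool. A long-lived RNA can build up in the pool while little of it is made in any short time. In macrophages, short-lived messages include those of immediate early transcription factors and inflammatory cytokines, which cells can switch quickly, and long-lived ones include those for ribosomes and mitochondria.

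Levels are given as log2 intensity and differences as nascent minus total on the same scale, so a difference of 1 is 2-fold. The arrays were scaled to each other by the authors, and a difference therefore places a gene against the rest of the genes measured, without saying how many molecules a cell held. As a background level, the 95th percentile of 1027 olfactory receptor genes was taken on each array. It lay at 6.41 and 6.19 in nascent RNA and at 6.24 and 6.32 in total RNA, and 10991 and 11409 genes in nascent RNA and 11411 and 11033 in total RNA were above it. Replicate arrays correlated across genes at 0.984 in nascent RNA and 0.987 in total RNA, and the fractions of one culture at 0.9588 and 0.9624. Of 28 macrophage markers, 27 were above the background level in nascent RNA and 26 in total RNA, which matches the labelled cell type. Precision is limited by the number of cultures, which is 2. The SE and p-values below come from a fit that pools the spread between cultures over all 3 times, stimulated cells included. The fit also draws each gene's spread toward that of other genes. An SE can thus be smaller than the 2 unstimulated cultures alone would give, and the spread may be partly technical.

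Nascent and total RNA differed at 16.0% of the genes. In a limma fit over the within-culture differences, 1511 genes (7.58%) were higher and 1678 (8.42%) lower in nascent RNA at a Benjamini-Hochberg adjusted p below 0.05. By at least 2-fold, 548 genes (2.75%) were higher and 768 (3.85%) lower. Without culture 1, 907 genes were higher by at least 2-fold, and with the unstimulated differences fitted alone 947 genes were higher in all. The median difference over all genes was 0.01, with the 5th and 95th percentiles at -0.88 and 0.80. Counted as above the background level were the 11216 genes that exceeded it on both arrays of at least 1 fraction. Of these, 1457 (13.0%) were higher and 1631 (14.5%) lower. The range was asymmetric, with a largest rise of 2.83 and a largest fall to -4.54. Across the genes above background, the differences of the 2 cultures correlated at 0.665. Counts of calls in the gene lists below are to be read beside these shares over all genes and over genes above background.

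**Figure D1:**
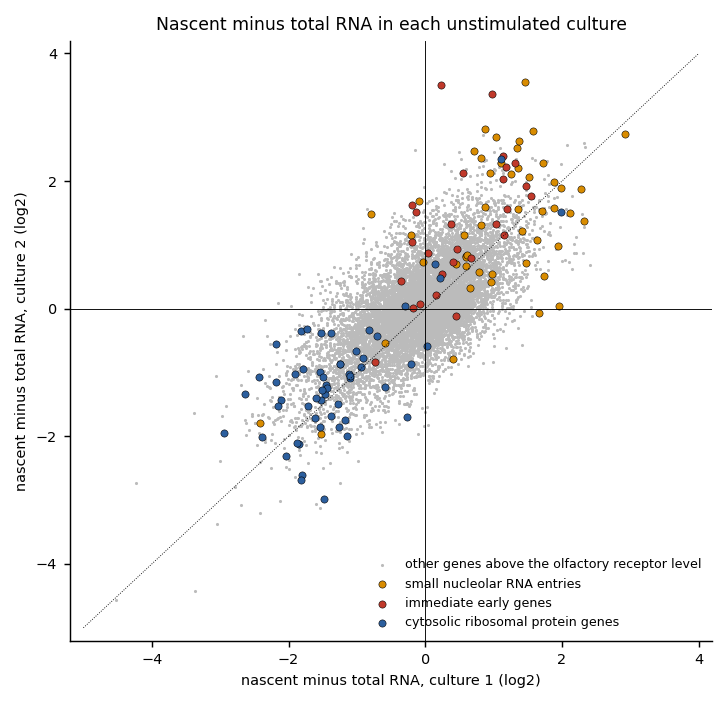
Nascent minus total difference (log2) of each gene above the background level in culture 1 (horizontal axis) and culture 2 (vertical axis), with 3 gene lists coloured and a dotted line of equality. The points spread along the line (r = 0.665), with most small nucleolar RNAs and immediate early genes above 0 and most ribosomal protein genes below 0 in both cultures.

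Among protein-coding genes, the largest rises included genes of a signalling inhibitor, kinases and transcription factors, beside genes of other kinds. Tnfaip3, which encodes the ubiquitin-editing inhibitor A20 of NF-kB signalling, read 10.86 and 11.26 in nascent RNA, against 8.79 and 8.69 in total RNA. The fractions did not overlap, and the difference of 2.32 ± 0.16 (SE of the limma fit, 2 unstimulated cultures) had an adjusted p of 3.96e-08. Gadd45b, a stress-induced regulator of MAP kinase signalling, read 12.04 and 12.75 in nascent RNA, against 11.07 and 9.39 in total RNA. Its rise of 2.16 ± 0.32 (adjusted p = 6.41e-05) was uneven, at 0.97 in culture 1 and 3.36 in culture 2. The cultures lay further apart than that SE conveys. Gadd45g, of the same family, rose by 1.87 on average but by only 0.23 in culture 1. Without culture 2 its adjusted p was 0.732, and without the pairing of fractions by culture it was 0.168.

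The other leading rises were closer between cultures. Zbtb26, a zinc finger protein with a BTB domain, read 9.67 and 9.85 in nascent RNA, against 7.52 and 8.07 in total RNA (1.96 ± 0.21, adjusted p = 3.06e-06). Map3k8, the kinase Tpl2 that carries Toll-like receptor signals to the ERK pathway, rose by 1.95. Ccnl1, a cyclin found with splicing factors, read 12.33 and 12.07 in nascent RNA, against 10.28 and 10.50 in total RNA, a rise of 1.81 ± 0.16. Pim1, a serine/threonine kinase induced by cytokines, rose by 1.81. Tiparp, a mono-ADP-ribosyltransferase and target of the aryl hydrocarbon receptor, rose by 1.8, and Klf6, a Krüppel-like transcription factor induced early after stimulation, by 1.79. Irf4, a transcription factor of alternative macrophage activation, rose by 1.79, although its level in both fractions was higher in culture 1. Rasgef1b, a Ras-family exchange factor that Toll-like receptor ligands induce, rose by 1.97, the kinase gene Nuak2 by 1.83, Edrf1 by 1.89, and the zinc finger genes Zfp709 and Zfp87 by 1.89 and 1.81.

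The largest falls among protein-coding genes included those of metabolic, secreted, membrane and ribosomal proteins, beside genes of other kinds. Gpx3, a secreted glutathione peroxidase, read 7.30 and 7.20 in nascent RNA, against 10.00 and 10.27 in total RNA, a difference of -2.88 ± 0.21 (adjusted p = 5.42e-08). Capns1, the small subunit of the calpain proteases, read 9.21 and 9.23 in nascent RNA, against 11.99 and 12.03 in total RNA (-2.79 ± 0.18, adjusted p = 1.72e-08). In both genes the replicates differed by little and the fractions lay far apart. Ephx1, a microsomal epoxide hydrolase, stood at -2.69, and Gstp1, a glutathione transferase, at -2.33. Among secreted products, Wfdc17 stood at -2.80, the acute phase protein Saa3 at -2.41 and Penk, the precursor of enkephalin peptides, at -2.25. Among membrane proteins, Cd72 stood at -2.30, Plp2 at -2.29 and Myadm at -2.28. The histone gene H2bc4 stood at -2.57 and the nuclear phosphoprotein gene Anp32a at -2.25. Hmgn5, a nucleosome-binding protein, read 5.42 and 5.07 in nascent RNA, under the background level, and was at least 2.41-fold lower than in total RNA. Such lower limits set the brighter fraction against the background level on the dimmer fraction's arrays.

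**Figure D2:**
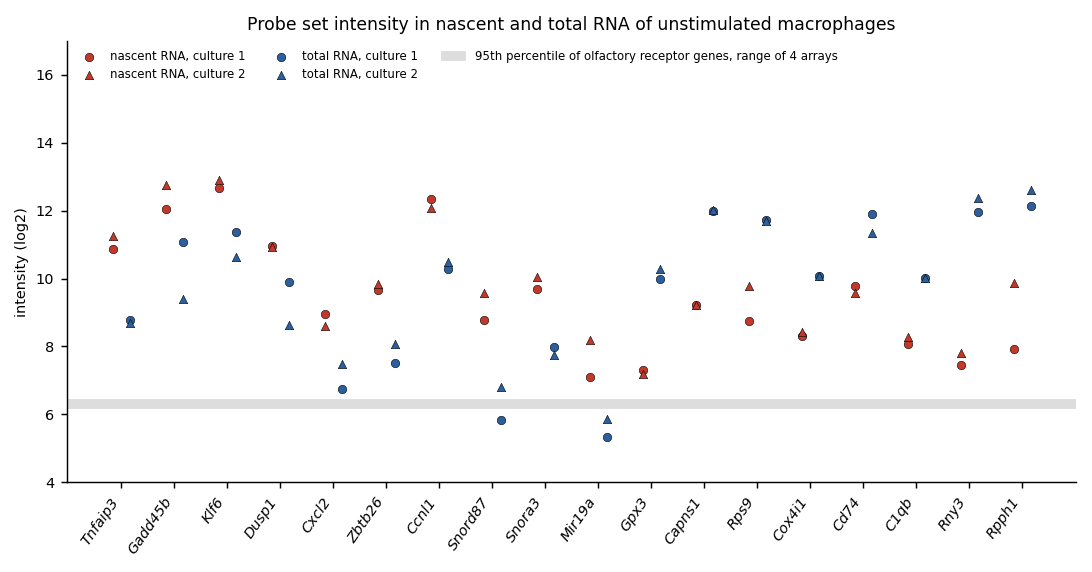
Intensity (log2) of 18 genes on each of the 4 arrays, with nascent RNA in red, total RNA in blue, and circles and triangles for cultures 1 and 2. The grey band spans the background levels of the 4 arrays (6.19 to 6.41). Tnfaip3 and Snord87 have both nascent points above both total points, and Gpx3 and Rny3 have both below.

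The RNAs with the largest falls of all were structural RNAs that RNA polymerase III makes. Rny3, a small Y RNA bound by the Ro60 protein, read 7.45 and 7.81 in nascent RNA, against 11.97 and 12.37 in total RNA, a difference of -4.54 ± 0.21 (adjusted p = 9.87e-11). Rpph1, the RNA subunit of the tRNA-processing enzyme RNase P, read 7.92 and 9.86 in nascent RNA, against 12.15 and 12.60 in total RNA (-3.48 ± 0.25, adjusted p = 4.01e-08). Rmrp, the RNA of the related RNase MRP, stood at -2.50 and also read lower in the nascent RNA of culture 1, at 8.01, than in that of culture 2, at 10.06. The entry n-R5s136, a gene of 5S ribosomal RNA, stood at -3.21, and its probes cannot tell the many copies of that gene apart. Vaultrc5, annotated as a vault RNA gene, was under the background level in nascent RNA and at least 5.14-fold lower than in total RNA. Rny1, another Y RNA, stood at -1.94, and Rn7sk, the 7SK RNA that holds the elongation factor P-TEFb inactive, at -0.96, both called lower. Terc, the template RNA of telomerase, which RNA polymerase II makes, differed by 0.23 and was not called.

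Small nucleolar RNAs, which guide chemical modification of ribosomal and spliceosomal RNA and are mostly cut from the introns of other genes, had the highest median of the lists. Of 54 measured entries 50 were above the background level, 38 were higher and 2 lower in nascent RNA, and the median difference was 1.28, against 0.01 over all genes and 7.58% of all genes called higher. Snord87, a guide of ribosomal RNA methylation, read 8.77 and 9.56 in nascent RNA, against 5.85 and 6.82 in total RNA, a difference of 2.83 ± 0.23 (adjusted p = 2.49e-07). Snord37 was at least 3.80-fold higher, and Snord95 rose by 2.18. Snora3, from the family that guides pseudouridylation, read 9.69 and 10.04 in nascent RNA, against 7.98 and 7.74 in total RNA, a rise of 2.01 ± 0.22. The exceptions were Scarna17, a guide RNA of Cajal bodies, at -2.10, and Snord57, at -1.74. The probe sets do not separate the finished small RNA from the intron that holds it.

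By RefSeq coordinates on GRCm38.p6, 53 of the 54 entries lay inside another gene, without regard to strand. For 27 that were above background and whose containing gene was measured, the small nucleolar RNAs had a median difference of 1.35 and 22 were higher. Their 23 host genes had a median of -0.95, with 4 higher and 13 lower. The small nucleolar RNA was above its host in 26 of 27 pairs. Snora3 rose while its host, the ribosomal protein gene Rpl27a, stood at -1.38. Snord37 was at least 3.80-fold higher while its host Eef2, which encodes the translocation factor of protein synthesis, stood at -1.03, with adjusted p = 0.206 without culture 1. Snora62 rose by 1.24 and its host Rpsa, a protein of the small ribosomal subunit, stood at -1.98. Of the 4 hosts that were higher, the noncoding Gas5 rose by 1.37 with its Snord47 at 1.46, and Rbmx, an RNA-binding protein gene, by 1.17 with its Snord61 at 1.84. Snord57 was the exception, at -1.74 against 0.76 for its host Nop56, a core protein of these particles, which was not called.

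**Figure D3:**
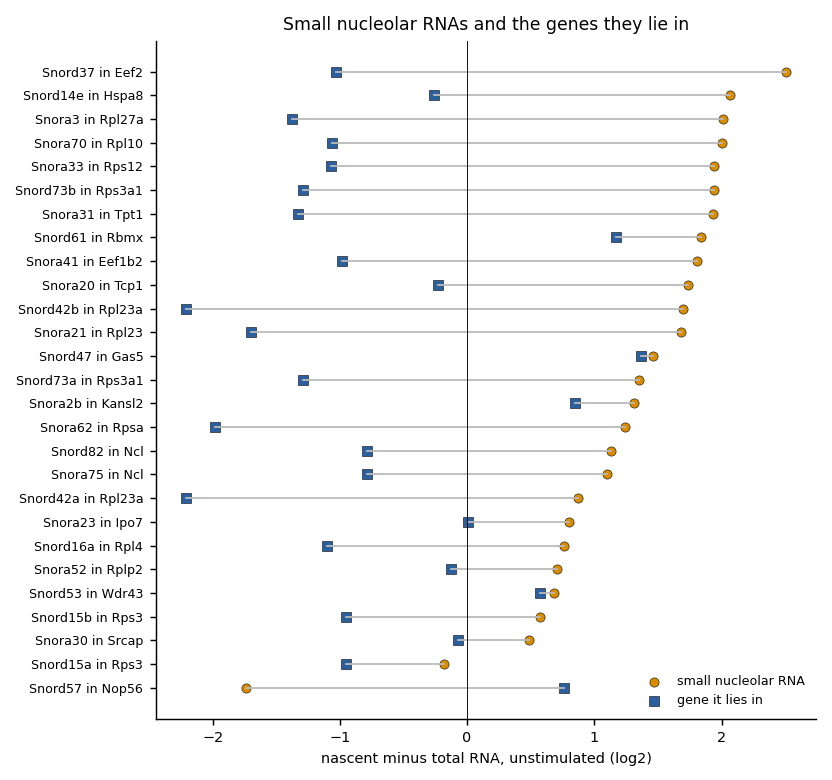
Nascent minus total difference (log2, mean of 2 cultures) of 27 small nucleolar RNAs above the background level (circles) and of the genes they lie in (squares), 1 pair per row. The circle lies right of the square in 26 of 27 rows, and Snord57 in Nop56 is the exception.

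MicroRNAs, short RNAs that pair with messages through bases 2 to 8 (the seed) and lower their output, are cut from longer transcripts. Of 300 measured entries with a microRNA gene symbol, host transcripts of that name included, 123 were above the background level. In nascent RNA 53 of the 300 were higher and 3 lower (17.67% and 1.00%), beside 7.58% and 8.42% of all genes. The median was 0.16, and none was lower without the pairing or without culture 1. Of the called entries, 8 were not above the background level on both arrays of either fraction. Of the 48 above it, 47 were matched to a RefSeq mature sequence. The readings belong to microRNA gene entries, and whether they reflect mature RNA or the longer transcripts was not tested. The 5 measured hairpins of the Mir17 cluster on chromosome 14, known for promoting cell growth, were all higher. Their mature RNAs are shown because they share seeds, in capitals, with the coordinates on GRCm38.p6, plus strand:
mmu-miR-17-5p, chr14:115043684-115043706: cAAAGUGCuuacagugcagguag
mmu-miR-20a-5p, chr14:115044183-115044205: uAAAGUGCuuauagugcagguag
mmu-miR-18a-5p, chr14:115043867-115043889: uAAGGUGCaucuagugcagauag
mmu-miR-19a-3p, chr14:115044048-115044070: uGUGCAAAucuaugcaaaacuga
mmu-miR-19b-3p, chr14:115044358-115044380: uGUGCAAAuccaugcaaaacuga

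Within that cluster, Mir18 read 7.95 and 9.07 in nascent RNA, against 5.97 and 6.79 in total RNA (2.13 ± 0.23, adjusted p = 3.36e-06). Mir19a was at least 2.57-fold higher, since its total RNA values of 5.33 and 5.86 were under the background level. Mir19b-1, whose mature form has the same seed as miR-19a, rose by 1.88. Mir20a and Mir17, with the seed AAAGUGC in common, rose by 1.63 and 1.41 (adjusted p = 0.0543 for Mir20a without the pairing). Mir17hg, named as the host gene of this cluster, read 6.89 and 7.47 in nascent RNA, against 5.56 and 6.0 in total RNA. It was at least 1.87-fold higher. By RefSeq coordinates its entry, chr14:115044390-115046728, does not contain the hairpins. Mir93 and Mir106b, from chromosome 5 and with the same AAAGUGC seed, were at least 1.87-fold higher and higher by 0.83. The call of Mir106b was lost without culture 2 (adjusted p = 0.0995).

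The let-7 family, regulators of differentiation with the seed GAGGUAG, had 6 of 10 measured entries higher and none lower. Mirlet7f-1 rose by 1.62, Mirlet7a-1 was at least 2.08-fold higher, and Mirlet7d rose by 1.43. Mirlet7g was at least 1.75-fold, Mirlet7c-1 at least 1.97-fold and Mir98 at least 1.25-fold higher. The call of Mirlet7c-1 was lost without culture 1 (adjusted p = 0.0699), and that of Mir98 without culture 1 (0.361), without culture 2 (0.0844) and without the pairing (0.114). Mirlet7i and Mirlet7e, above background, differed by 0.54 and 0.27 and were not called. Mirlet7a-2 and Mirlet7f-2 were under the background level in both fractions. The first 3 named lie together on the minus strand of chromosome 13 and differ outside the seed, in capitals, by few bases:
mmu-let-7f-5p, chr13:48537889-48537910: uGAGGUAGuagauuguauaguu
mmu-let-7a-5p, chr13:48538239-48538260: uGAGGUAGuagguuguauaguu
mmu-let-7d-5p, chr13:48536078-48536099: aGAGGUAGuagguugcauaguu

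Other microRNA entries rose from within protein-coding genes. Mir677 read 9.17 and 9.72 in nascent RNA, against 6.83 and 7.17 in total RNA, a rise of 2.44 ± 0.21 (adjusted p = 4.30e-07), while the gene that holds it, the ATP synthase subunit gene Atp5b, differed by -0.32. Mir342, in an intron of the actin regulator gene Evl, rose by 1.60 and Evl differed by -0.32. Over 47 entries above background with a measured host on the same strand, the median was 0.45 and 20 were higher. Their 38 host genes had a median of 0.08, with 3 higher and 1 lower. The entry was above its host in 38 of 47 pairs. Hosts were not required to be above background, and several, such as Dleu2, Rian and Igf2, were not. The host median and the count of pairs therefore include hosts without a usable difference. Mir29a rose by 1.97, and Mir29b-1, with the same AGCACCA seed, was at least 1.27-fold higher. Mir146, a microRNA that dampens Toll-like receptor signalling, read 7.39 and 7.14 in nascent RNA, against 6.39 and 5.99 in total RNA (1.07 ± 0.23). Mir155, which LPS induces in macrophages, read 5.75 and 5.75 in nascent RNA, against 5.68 and 5.6 in total RNA, all under the background level.

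Immediate early genes, which cells transcribe within minutes of a stimulus without making new protein first, had 15 of 33 measured members higher and 1 lower in nascent RNA, against 7.58% of all genes called higher. Of the 33, 27 were above the background level, with a median of 0.69 over the list, against 0.01 over all genes. The median was 0.33 in culture 1 and 1.05 in culture 2. Btg2, an antiproliferative adaptor of message deadenylation, read 9.33 and 10.40 in nascent RNA, against 8.20 and 8.01 in total RNA (1.76 ± 0.24). Jun, the AP-1 subunit, read 12.07 and 12.17 in nascent RNA, against 10.89 and 9.95 in total RNA (1.70 ± 0.21). Egr2, a zinc finger transcription factor, rose by 1.66 and Klf10 by 1.70. Jund, the AP-1 subunit that is present in resting cells, was lower, at -0.78, a call lost without the pairing (adjusted p = 0.0923). Fos, the partner of Jun, read 6.99 and 7.72 in nascent RNA, against 6.53 and 6.77 in total RNA, a rise of 0.70 ± 0.21 (adjusted p = 0.0284). The difference was 0.46 in culture 1 and 0.94 in culture 2, and the call was lost without culture 2 (adjusted p = 0.374) and without the pairing of fractions by culture (0.141). Leaving out culture 1 gave 20 higher and leaving out culture 2 gave 10, against 15.

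A TATA box, the promoter element bound by the TATA-binding protein, was looked for as TATAAA on the gene's strand, starting 45 to 21 bases before the RefSeq start. It was present in 3 of 22 immediate early genes with a sequence (13.64%), and in 2.57% of all promoters. Among coding genes above background it was present in 1.59%, with 2.67% of those called higher and 1.28% of those called lower. The 3 were Fos, Gadd45g and Btg1. The bases from 50 before to 10 after the start are shown for Fos and Gadd45g, on the plus strand of GRCm38.p6, with the motif in capitals:
Fos, chr12:85473840-85473899: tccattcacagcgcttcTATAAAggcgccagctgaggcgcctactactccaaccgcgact
Gadd45g, chr13:51846625-51846684: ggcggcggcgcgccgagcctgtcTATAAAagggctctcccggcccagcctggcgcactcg

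NF-kB is the main transcription factor of inflammatory signalling. Of 18 genes of its subunits and feedback inhibitors, all above background, 5 were higher and none lower, with a median of 0.24. Besides Tnfaip3 these encode 3 inhibitory or nuclear IkB proteins and 1 subunit. Nfkbia, the IkB-alpha that retains NF-kB in the cytoplasm, read 10.28 and 11.28 in nascent RNA, against 9.40 and 8.95 in total RNA (1.61 ± 0.22). Nfkbiz, a nuclear IkB needed for Il6 induction, rose by 1.53 and Nfkbid by 1.24. Rel, the c-Rel subunit, read 11.65 and 11.05 in nascent RNA, against 10.03 and 10.41 in total RNA (1.12 ± 0.19). The list's median was 0.04 in culture 1 and 0.54 in culture 2.

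Dual specificity phosphatases, which switch MAP kinases off, had 7 of 15 members higher and none lower, with a median of 0.53. The median was 0.30 in culture 1 and 0.77 in culture 2, and 4 were higher with the unstimulated differences fitted alone. Dusp1, the phosphatase of p38 and JNK in macrophages, read 10.97 and 10.93 in nascent RNA, against 9.89 and 8.64 in total RNA (1.68 ± 0.22). Dusp4 rose by 1.69, Dusp2 by 1.42 and Dusp16 by 1.04. Of 41 mRNA decay factors, which encode proteins that destroy messages, 12 were higher and 1 was lower, with a median of 0.37. Zfp36, the tristetraprolin that brings AU-rich cytokine messages to decay, read 9.50 and 10.30 in nascent RNA, against 8.47 and 9.10 in total RNA (1.12 ± 0.19). Its relative Zfp36l2 rose by 1.25, the endonuclease gene Zc3h12a by 1.24, Zc3h12c by 1.23 and Tob2, an adaptor of deadenylation, by 1.35. Pan2, a subunit of a poly(A) nuclease, was lower at -0.63, a call lost when either culture was left out.

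Of 46 measured cytokines, chemokines and growth factors 30 were above background, 9 were higher and 6 lower, with a median of 0.16. Among all genes above background 13.0% were higher and 14.5% lower. Cxcl2, a chemokine that attracts neutrophils, read 8.97 and 8.6 in nascent RNA, against 6.76 and 7.48 in total RNA (1.67 ± 0.21, adjusted p = 1.31e-05). Tnf, the inflammatory cytokine, rose by 1.07, Osm by 1.10 and the chemokine Ccl3 by 1.01. The call of Osm was lost without culture 2 (adjusted p = 0.0939) and that of Ccl3 without the pairing (0.113). On the lower side, Ccl5, a chemokine of T cells and monocytes, read 7.51 and 7.77 in nascent RNA, against 9.31 and 10.38 in total RNA (-2.20 ± 0.20, adjusted p = 5.65e-07). Tgfb1, the transforming growth factor with anti-inflammatory action, read 9.38 and 9.14 in nascent RNA, against 11.22 and 11.35 in total RNA (-2.03 ± 0.19). Il18, made as an inactive precursor protein, was at least 1.49-fold lower. Without the pairing of fractions by culture, 4 genes were higher instead of 9.

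Transcription factors of myeloid and immune cells had 20 of 51 members higher and 4 lower, with 47 above background and a median of 0.44. Irf1, an activator of interferon genes, rose by 1.60, Mafk, a small Maf protein, by 1.78, and Cebpb, a factor of inflammatory and myeloid genes, by 1.18 (adjusted p = 0.107 without the pairing). Stat6, which carries interleukin 4 signals, was lower, at -1.17. Leaving out culture 1 gave 2 lower instead of 4, as did dropping the pairing. The circadian clock list had 7 of 18 members higher and none lower, with a median of 0.59. Only 2 were higher when the unstimulated differences were fitted alone. Its repressors Bhlhe40 and Bhlhe41 rose by 1.53 and 1.24, and Cry1 and Nr1d2 by 0.84 and 0.82. Without culture 1 the adjusted p was 0.0891 for Cry1 and 0.118 for Nr1d2. Targets of p53, a transcription factor of the DNA damage response, had 7 of 20 higher, none lower and a median of 0.24. When culture 2 was left out 4 were higher. Plk2, a Polo-like kinase, rose by 1.67, and Mdm2, the ligase that degrades p53, by 1.11.

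Genes with a Zfp symbol mostly encode zinc finger transcription factors. Of 339 measured genes 264 were above background, 144 were higher and 1 lower, with a median of 0.56, against 7.58% and 8.42% of all genes. The median was 0.50 in culture 1 and 0.56 in culture 2. Zfp709 read 9.99 and 9.60 in nascent RNA, against 7.70 and 8.11 in total RNA (1.89 ± 0.25). Of 28 SR proteins, related factors and CLK kinases, which regulate splicing, 13 were higher and none lower, with a median of 0.43. Of 40 core spliceosome subunits 1 was higher and 6 were lower (2.50% and 15.00%), beside 13.0% and 14.5% of all genes above background. Their median was -0.22, with -0.29 in culture 1 and 0.03 in culture 2. Clk4, a kinase that phosphorylates SR proteins, read 11.92 and 11.56 in nascent RNA, against 10.09 and 10.41 in total RNA (1.49 ± 0.20). Srsf3, an SR protein that controls its own message through a poison exon, rose by 1.14, and Tra2b by 1.15. Snrpd2, a Sm protein of the core particle, read 7.32 and 7.47 in nascent RNA, against 8.85 and 8.97 in total RNA (-1.52 ± 0.21). The 1 higher core subunit, Sf3b3, rose by 0.88, with adjusted p = 0.285 without culture 2 and 0.0684 without the pairing.

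Of 22 integrated stress response genes 7 were higher, none lower, and the median was 0.39, with 0.07 in culture 1 and 0.51 in culture 2. Ppp1r15a, the GADD34 that restores translation, read 9.23 and 9.84 in nascent RNA, against 8.06 and 7.67 in total RNA (1.67 ± 0.23), and Atf4, the pathway's transcription factor, rose by 1.37. The count was 4 when the pairing was dropped and 3 when the unstimulated differences were fitted alone. Of 16 long noncoding RNAs and host genes of small nucleolar RNAs 6 were higher and 2 lower, with a median of 0.41. The higher ones included Gas5 and Snhg5, at 1.37 and 1.35, and Tug1, at 1.14. The 2 lower ones were Rpph1 and Rmrp. Regulators of G protein signalling had 2 of 9 members higher, Rgs1 at 1.58 and Rgs2 at 1.18, and 1 lower, Rgs18 at -0.87. Their median was 0.33. The shares of 22.22% and 11.11% stand beside 13.0% and 14.5% of all genes above background. The call of Rgs18 was lost without culture 2 (adjusted p = 0.0611) and without the pairing (0.0878).

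Of 58 measured cytosolic ribosomal protein genes 55 were above background, 49 were lower and 2 higher, with a median of -1.33, against 8.42% of all genes called lower. The medians of the cultures were -1.44 and -1.08. Rps9 read 8.76 and 9.77 in nascent RNA, against 11.72 and 11.70 in total RNA (-2.44 ± 0.23, adjusted p = 6.82e-07). Rpl28 read 10.04 and 10.42 in nascent RNA, against 12.43 and 12.43 in total RNA (-2.20 ± 0.17). Both nascent arrays were below both total arrays for either gene. The exceptions were Rpl30, at 10.61 and 10.67 in nascent RNA and 8.62 and 9.15 in total RNA (1.75 ± 0.21), and Rpl12, at 8.43 and 9.69 in nascent RNA and 7.32 and 7.35 in total RNA (1.72 ± 0.25). Ribosomal protein genes have many processed pseudogenes, and how probes shared with them affect the values was not tested.

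Ribosomal protein messages are known for a 5′ terminal oligopyrimidine tract, through which cells adjust their translation to growth signals. It was looked for as a C at the first base of the RefSeq transcript followed by 4 bases that are each C or T. Of 44 ribosomal protein promoters with a sequence 10 held it (22.73%), against 3.01% of all promoters. Of the 10 genes 7 were lower in nascent RNA, beside 84.48% of the whole ribosomal protein list. Among coding genes above background 2.74% held the tract, with 3.15% of those called lower and 2.40% of those called higher. Because the search takes only the RefSeq start, a start annotated a few bases off does not match. The window from 50 bases before to 10 after the start is shown for 3 of the 7, on GRCm38.p6, with the tract in capitals. Rpl28 and Rpl38 lie on the plus strand and Rps6 on the minus strand, and the 3 stood at -2.20, -2.23 and -1.53:
Rpl28, chr7:4792915-4792974: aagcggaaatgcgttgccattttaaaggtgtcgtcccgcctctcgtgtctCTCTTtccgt
Rpl38, chr11:114668530-114668589: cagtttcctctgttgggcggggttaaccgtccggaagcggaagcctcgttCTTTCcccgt
Rps6, chr4:86857358-86857417: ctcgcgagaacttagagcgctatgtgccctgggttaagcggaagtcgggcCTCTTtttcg

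Nuclear genes for oxidative phosphorylation, the mitochondrial machinery of ATP production, were lower in 43 of 71 cases and higher in none, with a median of -0.77. Cox4i1, a subunit of cytochrome c oxidase, read 8.32 and 8.42 in nascent RNA, against 10.08 and 10.07 in total RNA (-1.71 ± 0.21). Cox6a1 stood at -1.86, and Ndufa4, also of cytochrome c oxidase, at -1.75. The 2 measured messages of the mitochondrial genome, COX2 and ND3, differed by -0.35 and -0.41 and were not called. Mitochondrial ribosomal protein genes had a median of -0.20, with -0.35 in culture 1 and 0.04 in culture 2. Of 77 such genes 13 were lower and 2 higher (20 lower without culture 2), where 14.5% of all genes above background were lower. Translation factors had 18 of 47 lower, 5 higher and a median of -0.34, and 11 lower and 3 higher without the pairing or 10 and 2 with the unstimulated differences fitted alone. Eif3f, a subunit of the initiation factor eIF3, stood at -2.14, whereas Eif5 and the helicase gene Eif4a2 rose by 1.20 and 1.17.

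**Figure D4:**
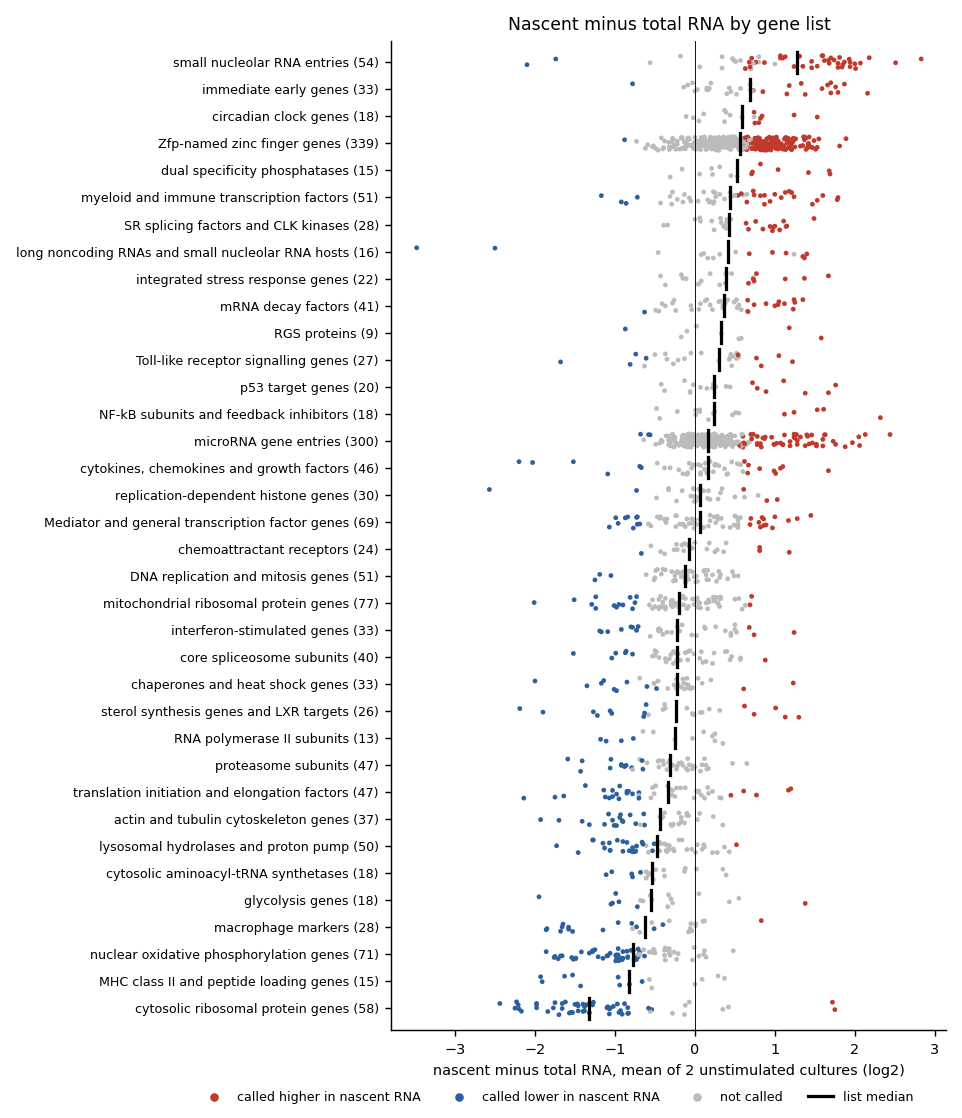
Nascent minus total difference (log2, mean of 2 cultures) of each measured gene, by gene list, for lists with at least 8 genes above the background level. Points are coloured by call, and a black bar marks the list median, which runs from 1.28 for small nucleolar RNAs at the top to -1.33 for cytosolic ribosomal protein genes at the bottom.

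Genes of the lysosome, the degradative compartment that macrophages rely on after phagocytosis, were lower in 23 of 50 cases and higher in 1, with a median of -0.47. Ctsh, a cathepsin protease, read 8.62 and 8.58 in nascent RNA, against 10.46 and 10.21 in total RNA (-1.73 ± 0.22). Npc2, which exports cholesterol from lysosomes, stood at -1.27 and Lamp2, a lysosomal membrane protein, at -1.28. Actin and tubulin cytoskeleton genes had 17 of 37 lower and none higher, with a median of -0.44. Tmsb4x, the actin monomer-binding thymosin, read 10.17 and 10.72 in nascent RNA, against 11.85 and 12.44 in total RNA (-1.70 ± 0.15). Capg, an actin filament capping protein, stood at -1.41. Proteasome subunits had 12 of 47 lower, none higher and a median of -0.31, with 5 lower when the pairing was dropped, among them the activator subunits Psme1 and Psme2 at -1.59 and -1.41 in the paired fit. Chaperones and heat shock genes had 9 of 33 lower and 2 higher, with a median of -0.23. Ppib, a prolyl isomerase of the endoplasmic reticulum, stood at -2.0, and Dnajb6, a co-chaperone, rose by 1.23.

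Glycolysis genes had 6 of 18 lower and 1 higher, with a median of -0.55 that was -1.08 in culture 1 and -0.08 in culture 2, and 11 lower without culture 2 but 3 without culture 1. Aldoc, an aldolase, stood at -1.95 and Pgk1, a phosphoglycerate kinase, at -1.05. The higher gene was Pfkfb3, which makes the activator of phosphofructokinase and sets the rate of glycolysis. It read 11.57 and 11.08 in nascent RNA, against 10.23 and 9.66 in total RNA (1.38 ± 0.18). Cytosolic aminoacyl-tRNA synthetases had 5 of 18 lower, none higher and a median of -0.54, with 8 lower without culture 2, 2 without culture 1 and 3 without the pairing. Wars, the tryptophanyl enzyme, stood at -1.04.

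Of 26 sterol synthesis genes and targets of the oxysterol receptor LXR 5 were higher and 9 lower, and without the pairing the counts were 3 and 5. The median was -0.24, with -0.40 in culture 1 and 0.12 in culture 2. Apoe, the lipid carrier that macrophages secrete, read 9.65 and 9.61 in nascent RNA, against 12.08 and 11.55 in total RNA (-2.19 ± 0.19). Scd1, a fatty acid desaturase, stood at -1.90. Insig1, which retains the sterol sensor in the endoplasmic reticulum, rose by 1.30, Mylip, a ligase that degrades the LDL receptor, by 1.13, and Abca1, the cholesterol exporter, by 1.01.

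Genes of MHC class II and peptide loading, by which macrophages present antigen, had 9 of 15 members lower, none higher and a median of -0.82. Cd74, the invariant chain that guides class II molecules, read 9.78 and 9.57 in nascent RNA, against 11.89 and 11.33 in total RNA (-1.93 ± 0.18, adjusted p = 7.77e-07). H2-Ab1 and H2-Aa, the class II chains, stood at -1.91 and -1.63, and B2m, the light chain of class I, at -0.94. Without culture 1 the count was 5. Interferon-stimulated genes had 8 of 33 lower and 3 higher, with a median of -0.22. Bst2, a tether of budding virus, and Oas3, a sensor of double-stranded RNA, stood at -1.19 and -1.17, while Mx2 rose by 1.24. Leaving out culture 1 gave 7 higher instead of 3, and dropping the pairing gave 5 lower instead of 8.

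Macrophage markers had 14 of 28 members lower, 1 higher and a median of -0.62. C1qb, a chain of complement C1q that macrophages secrete, read 8.07 and 8.28 in nascent RNA, against 10.03 and 10.03 in total RNA (-1.86 ± 0.21), and Siglec1, a sialic acid-binding receptor, stood at -1.68. The 1 higher marker was Tlr4, the LPS receptor, at 11.09 and 11.35 in nascent RNA and 10.29 and 10.48 in total RNA (0.83 ± 0.20). With the unstimulated differences fitted alone by limma its call was lost (adjusted p = 0.0729), and no marker was higher. The partner of Tlr4, Ly96, the MD-2 that binds LPS, stood at -1.68 and was called lower. Of 27 Toll-like receptor signalling genes 5 were higher and 4 lower, with a median of 0.30, beside 13.0% and 14.5% of all genes above background. With the unstimulated differences fitted alone the counts were 2 and 1. The signalling ligase Traf6 and the receptor Tlr2 rose by 1.22 and 1.05. Leaving out culture 1 gave 8 higher, and dropping the pairing gave 3. Receptors for chemoattractants had 3 of 24 higher and 1 lower (12.50% and 4.17%), with a median of -0.07, beside the same shares of all genes above background. Ccrl2, a non-signalling receptor, rose by 1.18 and Cxcr4 by 0.81, while Ccr2, the monocyte receptor for Ccl2, stood at -0.67 and lost its call without culture 1 (adjusted p = 0.373).

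The lists that follow stand beside 7.58% higher and 8.42% lower over all genes, and 13.0% and 14.5% above background. Mediator and general transcription factor genes had 13 of 69 higher and 10 lower (18.84% and 14.49%), with a median of 0.06. Taf7, a TFIID subunit whose gene has no introns, rose by 1.45, and Taf13 stood at -1.07. Leaving out culture 1 gave 6 lower. RNA polymerase II subunits had 4 of 13 lower and none higher, with a median of -0.25 (-0.61 in culture 1 and 0.04 in culture 2), but 1 lower without culture 1 and 2 without the pairing. Replication-dependent histone genes had 3 of 30 higher and 2 lower, with 16 above background and a median of 0.06 (-0.13 in culture 1 and 0.20 in culture 2), and with 7 higher without culture 1 but 1 without culture 2. Genes of DNA replication and mitosis had 3 of 51 lower and none higher (3 higher without culture 1), with a median of -0.12. The 3 lower ones were Prim1, a primase subunit that was at least 1.49-fold lower, the clamp loader gene Rfc4 at -1.19 and Rrm1, of ribonucleotide reductase, at -1.05, with adjusted p = 0.0567 for Rrm1 without culture 1.

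Markers of other cell types were low but not absent. The summed intensity of 16 markers of neutrophils and their precursors was 1555.4 and 1372.1 in nascent RNA, against 2868.9 and 2394.8 in total RNA, with 2 markers above background, Mmp8 and Csf3r, both lower. For 12 markers of mast cells and basophils it was 730.9 and 954.1 in nascent RNA, against 914.3 and 2139.6 in total RNA. Culture 2 was the high one, and Mcpt8, a basophil protease, read 5.52 and 6.51 in nascent RNA, against 6.76 and 9.24 in total RNA. Its call and that of Cpa3 were lost without the pairing (adjusted p = 0.189 and 0.214), leaving 1 of 3. In bulk RNA, fewer cells of a type and less RNA per cell cannot be told apart, and the part of these cells in the results above was not tested.

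The remaining marker lists held few detected genes. The dendritic cell list had 5 of 10 markers above background and 1 lower, the integrin gene Itgax at -1.95, which macrophages also express. Its sum was 941.3 and 1054 in nascent RNA, against 1910.3 and 1697.2 in total RNA. The B cell list had 1 of 9 above background and none called, with sums of 469.1 and 392.1 in nascent RNA and 394.8 and 450 in total RNA. The T and NK cell list had 2 of 11 above background and none called, and Il7r carried its sum of 7121 and 6126 in nascent RNA and 4889.1 and 5276.5 in total RNA. Erythroid and megakaryocyte markers had 1 of 8 lower, Pf4, whose call was lost without the pairing (adjusted p = 0.0859), and sums of 533.7 and 522.2 in nascent RNA against 527.8 and 621.6 in total RNA. Fibroblast and endothelial markers had 1 of 14 higher, Kdr, lost without the pairing (adjusted p = 0.338) and without culture 1 (0.0838), with sums of 1818.1 and 1983 in nascent RNA and 1737.8 and 1837.5 in total RNA. Of 1025 olfactory receptor genes 4 were higher and 1 lower, with a median of 0.00.

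Coding genes above background were divided into 5 equal groups by the length of the gene on the genome. Called lower were 17.88%, 16.53%, 17.65%, 15.13% and 7.96% from the shortest to the longest group, the last spanning 62845 to 1997664 bases. Called higher were 10.96%, 14.19%, 12.73%, 11.15% and 12.45%. The medians were 0.00, -0.02, -0.03, -0.01 and 0.08. Calls in both directions were more frequent at high levels, at 21.54% higher and 22.99% lower in the brightest of 5 groups and 3.14% and 5.24% in the dimmest.

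The nascent minus total differences were also taken in the cells given LPS, which came from the same 2 experiments. After 45 min of LPS 2226 genes (11.2%) were higher and 2834 (14.2%) lower in nascent RNA, and after 270 min 1244 (6.24%) and 1801 (9.03%). The olfactory receptor genes shifted too at 45 min, with a median of 0.25, 83 of 1025 higher and none lower. At 270 min their median was 0.05, with 16 higher and 7 lower, against 4 and 1 in unstimulated cells. How far the 45 min counts and changes rest on this shift was not tested. Of the 1511 genes higher in unstimulated cells, 978 (64.73%) were also higher at 45 min and 813 (53.81%) at 270 min. Of the 1678 lower genes, 1433 (85.4%) were also lower at 45 min and 1114 (66.39%) at 270 min. At all 3 times 639 genes were higher and 1005 lower. Snord87 differed by 2.83, 2.97 and 2.87 at 0, 45 and 270 min.

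**Figure D5:**
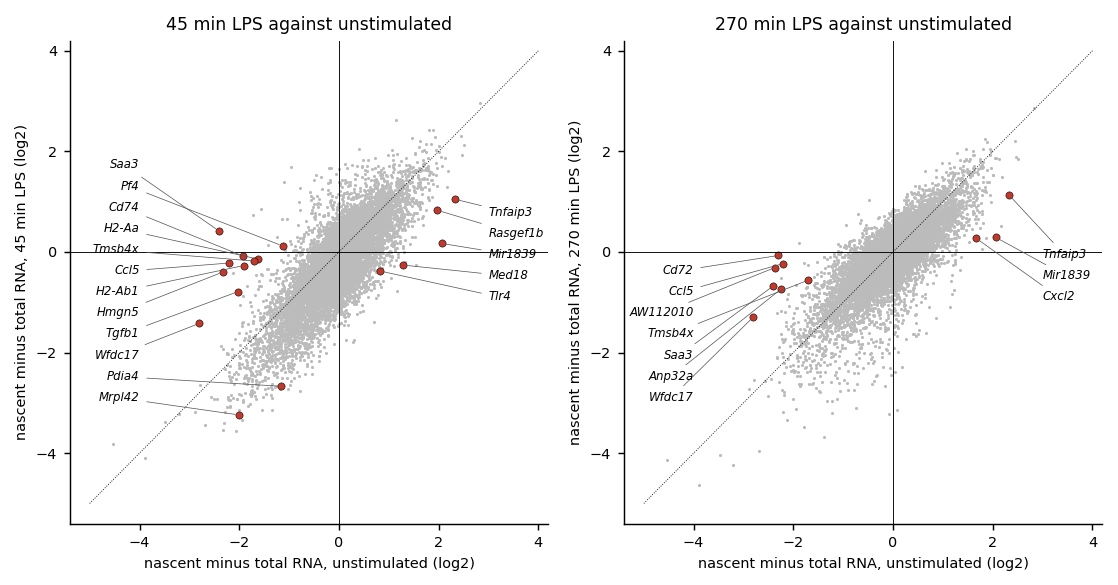
Nascent minus total difference (log2) of genes above the background level in unstimulated cells, on the horizontal axis and in cells after 45 min (left) or 270 min (right) of LPS on the vertical axis, with a dotted line of equality. Red points are named genes whose difference changed with LPS by the test, and Tnfaip3 and Ccl5 lie nearer to 0 on the vertical axis than on the horizontal one.

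A test of the change itself found few genes. At 45 min the nascent minus total difference was larger than in unstimulated cells for 95 genes (0.476%) and smaller for 113 (0.567%), and at 270 min for 24 (0.12%) and 144 (0.722%). Tnfaip3 differed by 2.32, 1.05 and 1.14 at 0, 45 and 270 min, and both changes were called (adjusted p = 0.00926 and 0.00914). Ccl5, lower in unstimulated nascent RNA at -2.20, moved toward 0 at both times, by 1.98 each. Saa3 moved by 2.83 at 45 min and 1.73 at 270 min. Cd74, H2-Ab1 and H2-Aa moved up by 1.86, 1.64 and 1.49 at 45 min. The difference of Cxcl2 fell by 1.39 at 270 min and that of Tlr4 fell by 1.21 at 45 min. For genes named for a large unstimulated difference, a move toward 0 is favoured by that choice alone. The calls of change rest on the pairing: without it the counts were 3 and 0 at 45 min and 2 and 47 at 270 min. They also depend on the cultures, since without culture 1 the counts were 371 and 1351 at 45 min and 280 and 838 at 270 min.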

How the data were processed

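The deposited values were intensities per probe set on a linear scale, for which the submitters' processing notes name RMA and the Affymetrix Expression Console (versions not given in the sources used here). RMA subtracts background and scales arrays to each other, which compresses small differences of dim genes and hides a change in total RNA output. Here log2 of the intensity was taken. The platform annotation tied 21789 of 35557 probe sets to a single symbol and 1621 to more, and lacked 12147; the singly named ones gave 19938 genes, each by its brightest probe set (999 genes had more than 1). Of the called genes, 274 had several probe sets and in 27 these differed in sign.

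For each culture and time, nascent minus total was computed, and the 6 differences were fitted with limma 3.58.1 in R 4.3.3 (a mean per time, intensity trend, residual degrees of freedom 3, prior 16.51, Benjamini-Hochberg adjustment over all genes, threshold 0.05). The pairing comes from the protocol, since both fractions came from the same RNA. The same-numbered arrays' deviations from their group means correlated at -0.0549, 0.175 and 0.4188 at 0, 45 and 270 min. Named were the 15 largest rises and falls among protein-coding genes and 6 each among other types. These had to be same-signed in both cultures and above background in the higher fraction. Up to 4 called genes per list were added without those conditions, or the 2 brightest members of a list with no call. Other genes in the text were chosen after their values were seen. The lists and groups were chosen with earlier results of these data known. The fit was tested on simulated data. Alternatives were no pairing, the 2 unstimulated differences alone, no trend, quantile scaling, centring, leaving out dim genes, an offset of 16, the mean of probe sets and leaving out a culture. Sequences and coordinates are from RefSeq (GRCm38.p6), and 8761 of 10678 coding genes above background (82.0%) had a promoter sequence. Figures were drawn with matplotlib 3.10.9.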

Additional observations from a re-analysis of the deposited data

Results flagged for a closer look

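For 21 of the genes named by the rule, a test of the change in the nascent minus total difference after LPS passed the threshold at 1 or both times, 27 differences in all (limma, adjusted p below 0.05). None is weighed here, and without the pairing of fractions by culture 1 of the 27 was called. Under quantile scaling 18 were called the same way, without culture 1 27 and without culture 2 23.

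Among the flagged genes higher in unstimulated nascent RNA, the difference became smaller. They were named for large unstimulated differences, and the change subtracts those same values, so the choice alone favours such a shift. For Tnfaip3 it changed by -1.27 at 45 min and -1.18 at 270 min. For Mir1839, at 5.98 and 6.33 in nascent RNA and 4.12 and 4.08 in total RNA of unstimulated cells and so close to or under the background level, it changed by -1.89 and -1.76. At 45 min it changed by -1.13 for Rasgef1b, by -1.54 for the Mediator subunit gene Med18 and by -1.21 for Tlr4. At 270 min it changed by -1.39 for Cxcl2. The rise of Med18 in unstimulated cells itself rested on culture 2 (adjusted p = 0.292 without it).

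Among the flagged genes lower in unstimulated nascent RNA, most moved toward 0, a direction that the choice of genes favours in the same way. At 45 min the change was 1.25 for Pf4, 1.49 for H2-Aa, 1.64 for H2-Ab1, 1.86 for Cd74, 1.24 for Tgfb1 and 1.93 for Hmgn5. At 270 min it was 1.51 for Anp32a, 2.24 for Cd72 and 2.07 for the noncoding AW112010. At 45 and 270 min it was 1.52 and 1.13 for Tmsb4x, 1.98 and 1.98 for Ccl5, 2.83 and 1.73 for Saa3, and 1.39 and 1.51 for Wfdc17. In unstimulated nascent RNA Hmgn5, AW112010 and Mrpl42 were under the background level, so their changes are only approximate. Pdia4 and Mrpl42 moved further from 0 at 45 min, by -1.50 and -1.23. The probe sets of Pdia4 differ in sign, and with their mean its difference in unstimulated cells was -0.24 (adjusted p = 0.605).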

How the results depend on the processing

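No called gene named by the rule changed sign under an alternative. Some list medians did, among them, without culture 1, core spliceosome (0.03, against -0.22), mitochondrial ribosomal proteins (0.04, against -0.20), sterol genes (0.12, against -0.24) and RNA polymerase II (0.04, against -0.25), and histones without culture 2 (-0.13, against 0.06). Without the replicate block, so without pairing the fractions by culture, 1091 genes were higher and 1228 lower, against 1511 and 1678, and the counts of genes whose difference changed with LPS were 3 larger and 0 smaller at 45 min and 2 and 47 at 270 min, against 95, 113, 24 and 144. With the 2 unstimulated differences alone 947 genes were higher, and list counts dropped by over 1.5 times, among them higher cytokines (5, against 9), phosphatases (4, against 7), myeloid factors (13, against 20), p53 targets (4, against 7) and Mediator (7, against 13), and lower interferon-stimulated (3, against 8) and oxidative phosphorylation genes (28, against 43). Under quantile scaling the changes with LPS numbered 56 larger and 18 smaller at 45 min and 88 smaller at 270 min. Leaving out a culture's unstimulated difference, with the other assumed to vary like the remaining groups, gave 1253 to 1635 genes higher and 1337 to 1845 lower, 579 to 907 higher and 762 to 1122 lower by at least 2-fold, 194 to 371 larger and 125 to 1351 smaller at 45 min, and 65 to 280 larger and 196 to 838 smaller at 270 min. The high end of the smaller counts came without culture 1. The cause was not tested. Of 183 genes named by the rule, 165 kept their call or its absence without the replicate block, 160 without culture 1 and 174 without culture 2, and under no trend, quantile scaling, centring, the offset and the mean of probe sets 181 or 182 did. Genes below the background level have no usable difference, and 2 cultures limit what the test can call.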

Other observations

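The platform annotation gave no entry for 12147 probe sets, and 6858 of these were above the background level. Their nascent minus total difference had a median of 0.45 (log2). At least 2-fold higher in nascent RNA in both cultures were 1378 (20.1%), and at least 2-fold lower 190 (2.77%). Among the 11216 named genes above background the counts were 275 (2.45%) and 470 (4.19%). What these probe sets measure was not analysed here, and no test was made.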
